A study of Mus musculus with 2 samples.

Results

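Myc, Mycn and Mycl encode the MYC family of transcription factors, Lin28b encodes an RNA-binding protein, Hmga2 encodes a chromatin protein, and Igf2bp1, Igf2bp2 and Igf2bp3 encode a family of mRNA-binding proteins. These 8 genes were taken by symbol from the 32285 genes counted in each library. They were followed across classes of kidney nuclei, which were built from marker genes outside the set, and across the embryonic age E18.5 and postnatal day 3 (P3). Male and female kidneys were pooled, and their nuclei were profiled by 10x Genomics 3′ single-nucleus RNA sequencing as 1 library at each age. The E18.5 mice were Mycf/f;Mycnf/f (no Cre) on a mixed strain background. Myc and Mycn were thus floxed, that is, flanked by loxP sites, and the genotype held no Cre recombinase to delete them. The P3 mice were Wild type, with the background given as C57BL/6J in the sample labels and as mixed in the study's methods. Genotype, strain, library and software release change together with age, and their parts cannot be told apart. Whether loxP sites altered the counts of Myc or Mycn was not tested.

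MYC proteins pair with MAX on the E-box motif and raise the transcription of genes for ribosome production, metabolism and cell division. In the embryonic kidney both Myc and Mycn are known from nephron progenitors. LIN28B binds let-7 precursors and keeps them from maturing. Mature let-7 microRNAs pair through their seed with the 3′ untranslated regions (UTRs) of mRNAs, among which Hmga2, the Igf2bp genes and Lin28b itself are textbook targets. HMGA2 bends DNA and is known from self-renewing fetal stem cells. IGF2BP proteins were named for their binding to the Igf2 mRNA, and they bind and stabilise many transcripts, that of Myc among them.

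After quality limits, 21270 nuclei were kept at E18.5 and 11765 at P3, with 77321253 and 70055219 unique molecular identifiers (UMIs, each standing for 1 captured molecule) and a median of 3132 and 4534 UMIs per nucleus. The libraries shared 69 barcodes, 0.319% of those at E18.5 and 0.565% at P3. Ribosomal protein genes took 4.61% of UMIs at E18.5 and 1.14% at P3. The age ratio, the level at P3 divided by that at E18.5, also moved with gene length: with genes cut into 10 bins of length, its median was −0.65 on the log2 scale in the shortest bin and 0.31 in the longest. Myc, Mycn and Mycl fall in the shortest bin, of genes up to 7.09 kb. The part of these shifts in the results on single genes was not tested.

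Clusters fell into 11 classes present at both ages, and 32.9% of nuclei at E18.5 and 22.4% at P3 stayed unnamed. A class was defined as Eya1-rich after the clusters were seen, since Eya1, a transcriptional co-activator of nephron progenitors, was among its 10 leading genes. At E18.5 these 2290 nuclei had 4 of 8 nephron progenitor markers raised and 0 of 9 early nephron markers. At P3 the 812 nuclei had 4 of 8 and 4 of 9 raised, so the data go against calling them progenitors alone. Levels are given as CPM, the UMIs of a gene per 1000000 UMIs of the nuclei concerned. Eya1 read 1785 CPM at E18.5 and 1722 CPM at P3. Six2, which keeps progenitors undifferentiated, read 29.3 and 11.9 CPM, and Cited1, a marker of the least committed progenitors, read 33.8 and 1.16. Both genes were also lower at P3 in other classes, such as stroma (Six2 6.34 and 0.471, Cited1 22.2 and 0.74) and endothelium (Six2 6.64 and 1.65, Cited1 18.6 and 0.708). Their lower levels were thus not particular to Eya1-rich nuclei. Wnt4, the signal of epithelial conversion, read 80.1 and 376, and Lhx1, a transcription factor of the renal vesicle, read 37.4 and 231. In early nephron they were also higher at P3 (Wnt4 45.2 and 108, Lhx1 204 and 416), and in stroma they were lower (69.4 and 63.6, 29.4 and 20.8). Names such as podocyte or stroma below stand for nuclei that are like that type in these markers. In the named classes, between 3 and 8 markers of the class's own list were raised at either age. Early nephron had 3 of 9 raised at E18.5 and 7 of 9 at P3, so its name is weaker at E18.5. The shares of classes differed between the ages: proximal tubule made up 7.82% of nuclei at E18.5 and 18.1% at P3, and the Eya1-rich class 10.8% and 6.9%. Ratios over all nuclei include this difference in shares, and its part in them was not tested. Called doublets were common in podocyte nuclei (43.1% at E18.5, 25.4% at P3) and proximal tubule nuclei at P3 (38%). They made up 19.7% of endothelial nuclei at E18.5 and 17.7% at P3.

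The let-7 mature sequences are shown first, because the search for target matches rests on their seed. RefSeq (GRCm38.p6) lists 13 mature entries of let-7 and miR-98, of which 12 share the seed GAGGUAG. The capitals mark the seed, bases 2 to 8 from the 5′ end, in 5 of them.
mmu-let-7a-5p: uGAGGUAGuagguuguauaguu
mmu-let-7d-5p: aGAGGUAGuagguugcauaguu
mmu-let-7g-5p: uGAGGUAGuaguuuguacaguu
mmu-miR-98-5p: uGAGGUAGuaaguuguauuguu
mmu-let-7j: uGAGGUAUuaguuugugcuguuau
The let-7a copy shown lies at chr13:48538239-48538260 on the minus strand, and let-7g at chr9:106178846-106178867 on the plus strand. The let-7j entry differs from the others in its seed. No mature microRNA was measured here, since the libraries hold polyadenylated RNA of nuclei.

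The complement of the seed, CTACCTC, was sought on the transcript strand in the longest annotated 3′ UTR of each gene (GENCODE M21, GRCm38). Lin28b, Hmga2 and Igf2bp1 each held 4 matches, Igf2bp2 and Igf2bp3 each held 1, and Myc, Mycn and Mycl held none. Of 20996 protein-coding genes with a 3′ UTR, 1880 (8.95%) held at least 1 match and 12 (0.0572%) at least 4. Long UTRs hold more matches: among genes whose UTR is about as long as that of Lin28b (4445 bases, with the shorter at least 0.8 times the longer), 24.1% held a match and 0.297% held as many. The corresponding shares were 16.1% and 0.124% for Hmga2 (3014 bases) and 34.4% and 0.332% for Igf2bp1 (6337 bases). A single match is common, at 12% of UTRs as long as that of Igf2bp2 and 13.3% for Igf2bp3. In the 14 matches together, 7 were followed by A, the base often found opposite the first base of a microRNA. Matches of the 5 genes are printed with the CTACCTC in capitals, 1 for each gene and a second for Hmga2, all on the minus strand.
Lin28b, chr10:45381018-45381039: ggcgggaagtCTACCTCatgca
Hmga2, chr10:120364220-120364241: cattcaatttCTACCTCagcat
Hmga2, chr10:120361687-120361708: aaacacactaCTACCTCttaag
Igf2bp1, chr11:95959353-95959374: gtgctattaaCTACCTCagccc
Igf2bp2, chr16:22059469-22059490: caaataaaagCTACCTCaggtg
Igf2bp3, chr6:49086783-49086804: ttttactcaaCTACCTCaggta
All lie in exons, in the 3′ UTR. The Lin28b match starts at base 36 of its UTR and the first Hmga2 match at base 58. A match of letters describes the sequence and does not show that let-7 binds there.

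**Figure D1:**
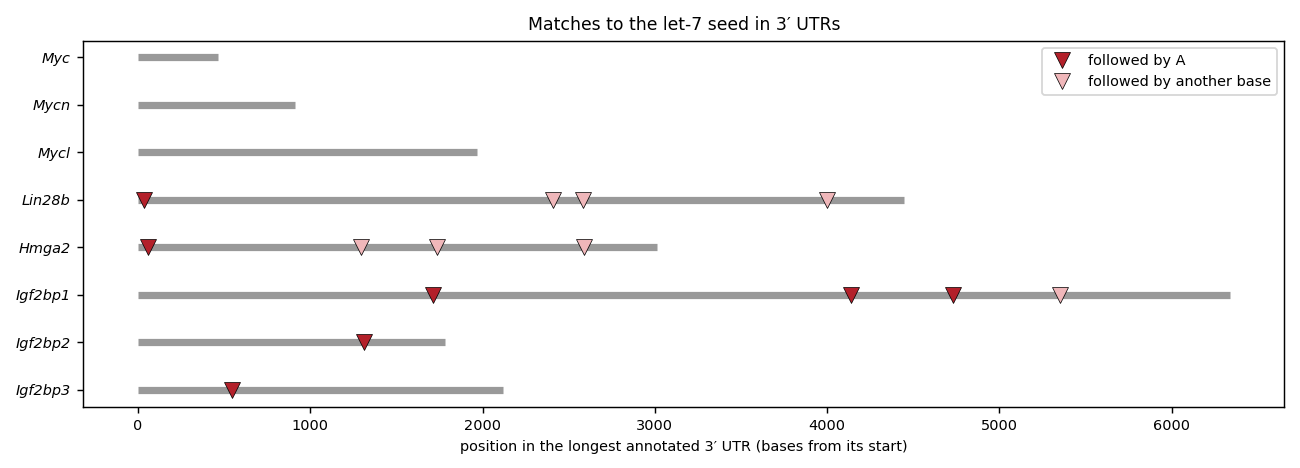
Positions of the let-7 seed complement in the longest annotated 3′ UTR of each of the 8 genes, in bases from the start of the UTR, with grey bars to scale. Dark marks are followed by A, light marks by another base, and Myc, Mycn and Mycl have no mark.

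The E-box CACGTG, the motif read by MYC and MAX, was sought in RefSeq promoter windows from 250 bases before to 50 bases after the transcription start (GRCm38.p6). CACGTG is its own reverse complement, so both strands give the same matches. Windows were given for 6 of the 8 genes and not for Myc and Igf2bp1. Lin28b held 1 E-box and Igf2bp3 held 2, against 7.15% of 32851 windows with at least 1 and 0.594% with at least 2. They are printed on the minus strand, the strand of both genes, with the E-box in capitals.
Lin28b, chr10:45470235-45470260: ttgacagagtCACGTGtgctcagggg
Igf2bp3, chr6:49214962-49214987: tgggattcctCACGTGagacgttgat
Igf2bp3, chr6:49214934-49214959: gtagtttgaaCACGTGgctcattcaa
The Lin28b motif begins 49 bases before the start site, and the first Igf2bp3 motif 23 bases before it. The other lies just inside the Igf2bp3 transcript. The RefSeq start used for Lin28b lies inside the longer GENCODE gene given further on, not at its 5′ end. No binding was measured.

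Myc (chr15:61985391-61990374, plus strand) was lower at P3 than at E18.5 in most classes. Coordinates of genes are those of GENCODE M21 on GRCm38. The libraries held 1063 Myc UMIs at E18.5 and 252 at P3, which is 13.7 and 3.6 CPM. Below, parentheses beside a level in CPM give exact 95% Poisson intervals. With 1 library at each age, and with nuclei that are no replicates of a condition, all intervals cover counting error only. Among the named classes of the E18.5 library Myc stood highest in Eya1-rich nuclei, at 21.7, and in proximal tubule, at 19.8. These 2 classes did not differ beyond counting error, with a ratio of 1.09 (0.864 to 1.39). Stroma read 12.1, early nephron 12.7, endothelium 10.9, ureteric epithelium 7.4, podocyte 7.29 and leukocyte 5.32. An unnamed cluster of 2968 shallow E18.5 nuclei, with ribosomal protein and hemoglobin genes among its leading genes, read higher, at 27.9 (23.1 to 33.4). No neighbouring pair in the order of classes differed beyond counting error at either age. Classes further apart did: at E18.5 the Eya1-rich class was 4.08-fold (1.11 to 34) above leukocyte, the lowest class, which held 2 Myc UMIs.

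At P3 Myc was low in all classes. It read 7.22 (4.9 to 10.2) in Eya1-rich nuclei, 7.12 in leukocyte, 4.72 in endothelium, 2.29 in stroma and 0 in the 132 distal tubule nuclei, where a count of 0 still allows up to 3.97 CPM (3 UMIs). The age ratio over all nuclei was 0.262 (0.227 to 0.3), and 1.22% of the genes tested had a ratio this low or lower. The log2 ratio was −1.93, against a median of −0.65 for genes of like length, which leaves −1.29. Myc was lower at P3 in Eya1-rich nuclei (0.333, 0.219 to 0.49), stroma (0.19, 0.128 to 0.274), endothelium (0.434, 0.247 to 0.731), early nephron (0.321) and ureteric epithelium (0.331). The lower level thus appeared in Eya1-rich, epithelial, stromal and vascular nuclei alike. Less the median of genes of like length in the same class, the log2 ratio was −0.94 in Eya1-rich nuclei, −1.59 in stroma and −0.49 in endothelium. In early nephron it was −0.96 and in ureteric epithelium −0.88.

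Mycn (chr12:12936093-12941914, minus strand), the MYC family member best known from nephron progenitors, took the opposite course in 1 class. Eya1-rich nuclei held 28.6 (25 to 32.6) Mycn CPM at E18.5 and 56.8 (49.9 to 64.4) at P3, an age ratio of 1.98 (1.65 to 2.39). They were the highest named class at both ages, 1.66-fold (1.39 to 1.99) above stroma at E18.5 and 3.43-fold (2.54 to 4.71) above early nephron at P3. Their share of all Mycn UMIs was 15.8% at E18.5, from 10.1% of the library's UMIs, and 30% at P3, from 6.13%. A Mycn UMI was found in 8.73% of these nuclei at E18.5 and 21.3% at P3. With each nucleus thinned to 1000 UMIs, the shares were 3.16% and 5.91%, while in podocytes, low in Mycn, they were 1.26% and 0 of 280 (exact binomial upper limit 1.31%). The Eya1-rich nuclei had a median of 3149 and 4753 UMIs, and podocytes 4020.0 and 4856.

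Mycn was lower at P3 in stroma, ureteric epithelium and podocyte, and early nephron and endothelium did not differ beyond counting error. Stroma went from 17.2 to 6.79 (age ratio 0.394, 0.311 to 0.496), ureteric epithelium from 14 to 5.26 (0.375, 0.196 to 0.676), podocyte from 11.8 to 3.14 (0.265, 0.0831 to 0.654) and proximal tubule from 14 to 7.42 (0.532, 0.407 to 0.698). The proximal tubule value depends on the clusters in the class, with 0.819 (0.518 to 1.36) without a Grid1-led cluster described below and 1.09 in Leiden clusters, so no direction is given for it. Early nephron read 16 and 16.6, with a ratio of 1.04 (0.695 to 1.55), and endothelium 12 and 8.97, with 0.748 (0.488 to 1.13). Over all nuclei the 1408 and 813 UMIs gave 0.637 (0.584 to 0.695), a log2 ratio of −0.65 that equals the median of the shortest genes. Mycn over all nuclei was thus as much lower as the typical gene of its length, and the Eya1-rich class stood 1.64 log2 units above the corresponding median in that class. Taken the same way, the log2 ratio less the median of the class was −0.53 in stroma, −0.70 in ureteric epithelium, −1.36 in podocyte and −0.30 in proximal tubule. It was 0.30 in endothelium and 0.73 in early nephron. The lower Mycn in stroma and ureteric epithelium thus includes a shift shared by short genes of these classes.

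The Eya1-rich nuclei of the 2 ages differ in their markers, so Mycn was read again in subsets split by single markers, a choice made after the data were seen. Nuclei with a UMI of Wnt4, Lhx1 or Jag1, the last a Notch ligand of the renal vesicle, numbered 788 at E18.5 and 646 at P3. In them Mycn read 33.1 (26.8 to 40.4) and 61.4 (53.6 to 70.1), a ratio of 1.86 (1.45 to 2.39). Nuclei with no UMI of Six2, Cited1, Wnt4, Lhx1 or Jag1 numbered 1227 and 152, and there Mycn read 26.8 (21.9 to 32.4) and 28.7 (17 to 45.3), a ratio of 1.07 (0.611 to 1.78). Nuclei of any cluster with at least 5 Eya1 UMIs and none of Wnt4, Lhx1 or Jag1, 1155 and 161 of them, gave 0.841 (0.481 to 1.39). The Eya1-rich nuclei with a Six2 or Cited1 UMI and none of Wnt4, Lhx1 or Jag1, 275 and 14 of them, held 23 and 5 Mycn UMIs, or 23.2 and 72.8 CPM, a ratio of 3.14 (0.934 to 8.46). Cited1 UMIs were found in other classes too at E18.5, so they mark this subset weakly. The higher Mycn at P3 thus exceeded counting error in nuclei with a Wnt4, Lhx1 or Jag1 UMI. In the 3 subsets without such UMIs the interval included 1, with values on both sides of it. Wnt4, Lhx1 and Jag1 read 80.1, 37.4 and 38.9 CPM in the E18.5 Eya1-rich class, near stroma at 69.4, 29.4 and 38.2. At P3 they read 376, 231 and 176 in Eya1-rich nuclei. A UMI of these genes thus marks early nephron state weakly at E18.5, and the subset may hold unlike nuclei at the 2 ages. Median depth was 3325 and 5024 UMIs in the first subset and 3040.0 and 3858 in the second, and the part of depth was not tested. Myc was lower at P3 in both subsets, with age ratios of 0.335 (0.203 to 0.537) with and 0.301 (0.0802 to 0.801) without such UMIs. Outside the class, an unnamed E18.5 cluster of 1198 nuclei led by Ndnf and with the progenitor and podocyte gene Wt1 among its leading genes read 30.6 for Mycn, and the Eya1-rich cluster was 0.935 (0.749 to 1.17) of it. The unnamed shallow E18.5 cluster of 2968 nuclei read 33.1 (27.9 to 39.1).

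**Figure D2:**
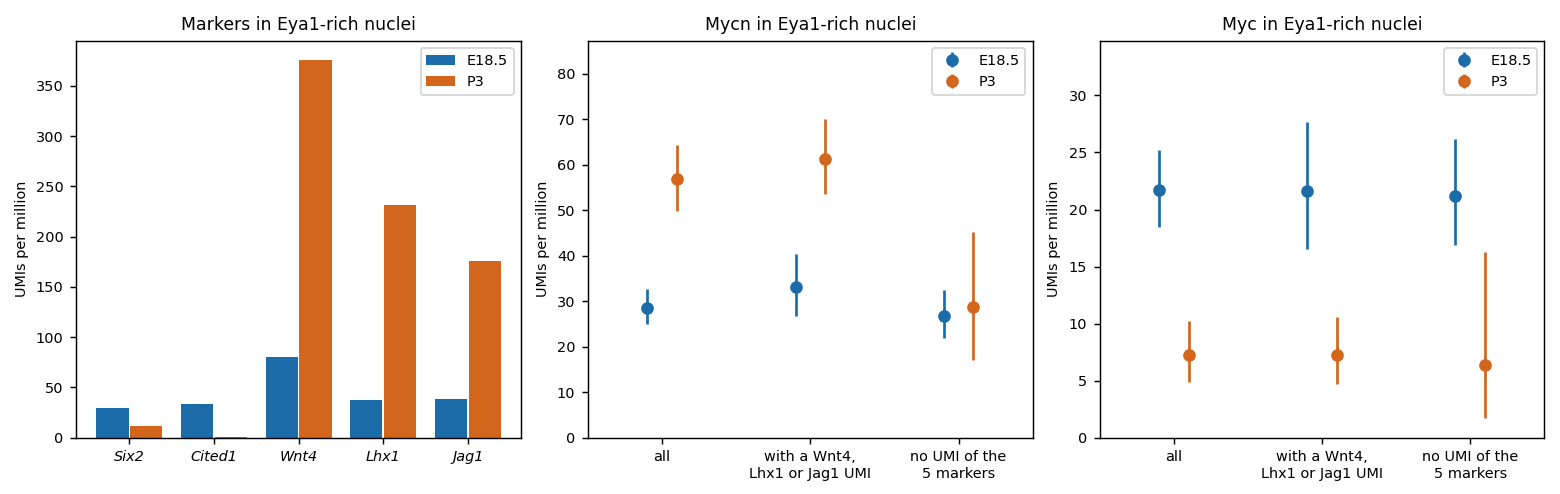
Levels in Eya1-rich nuclei at E18.5 and P3, in CPM: single marker genes as bars from 0 (left), and Mycn (middle) and Myc (right) in all Eya1-rich nuclei and in 2 subsets, as points with exact 95% Poisson intervals. Mycn separates the ages among nuclei with a Wnt4, Lhx1 or Jag1 UMI (33.1 and 61.4) and overlaps among those with no UMI of the 5 markers (26.8 and 28.7).

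Mycl (chr4:122995652-123002485, plus strand), the family member known from epithelia and from dendritic cells, was barely counted, at 192 UMIs at E18.5 and 155 at P3. At E18.5 all 11 classes lay between 1.16 and 7.97 CPM, and no neighbours in the order differed beyond counting error. At P3 urothelium, the lining of the renal pelvis and ureter, stood apart at 64.2 (46.3 to 86.8). It was 20.4-fold (9.77 to 47.6) above ureteric epithelium, the next class. These 71 nuclei held 42 of the 155 UMIs, or 27.1% of Mycl from 0.934% of the library's UMIs. The UMIs came from 18 of the 71 nuclei (25.4%), with at most 5 in 1 nucleus. After thinning, 3 of 71 nuclei (4.23%, exact binomial interval 0.88 to 11.9) had a UMI. The 84 urothelial nuclei at E18.5 held 1 UMI, so the age ratio of 20.5 has an interval of 3.48 to 827. In proximal tubule the ratio was 0.336 (0.154 to 0.744), and over all nuclei 0.891 (0.716 to 1.11).

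Lin28b (chr10:45376620-45486395, minus strand), which holds let-7 in check, was rare, and its leading classes were not those of Hmga2. The libraries held 496 and 173 Lin28b UMIs, 6.41 and 2.47 CPM. Leukocyte read 29.2 (14.6 to 52.3) in the E18.5 library and 23.1 (12.3 to 39.6) in the P3 library. Endothelium read 23 (19.2 to 27.5) and 10.4 (7.54 to 13.9), and urothelium 15.7 (5.09 to 36.6) and 18.3 (9.48 to 32). These 3 classes had the highest values at both ages, and neighbours among them did not differ beyond counting error. At E18.5 leukocyte held 11 Lin28b UMIs and urothelium 5. There urothelium did not differ beyond counting error from ureteric epithelium, the next class (1.56, 0.48 to 3.97). At P3 endothelium stood above ureteric epithelium (4.23, 1.89 to 11.1). Endothelium alone gave 25.2% of all Lin28b UMIs at E18.5, from 7.01% of the UMIs, and 25.4% at P3, from 6.05%. It stood 5.48-fold (4.05 to 7.47) above stroma at E18.5 and 8.58-fold (4.86 to 15.8) at P3.

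In the Eya1-rich class, with the most Hmga2, Lin28b was among the lowest, at 1.8 (0.983 to 3.02) from 14 UMIs at E18.5 and 0.233 from 1 UMI at P3. The leukocyte level at E18.5 was 16.3-fold (6.68 to 38.6) higher. A Lin28b UMI was seen in 0.568% of the embryonic Eya1-rich nuclei (median 3149 UMIs) and 7.18% of the embryonic endothelial nuclei (median 3142). At P3 these shares were 0.123% (median 4753) and 4% (median 3755). In the ureteric epithelium Lin28b read 10 and 2.45, in early nephron 9.64 and 1.88, and in stroma 4.2 and 1.21. The age ratio was 0.385 (0.322 to 0.459) over all nuclei, a log2 ratio of −1.38, where genes of like length had a median of 0.19. It was 0.45 (0.312 to 0.64) in endothelium, 0.244 (0.092 to 0.553) in ureteric epithelium, 0.288 in stroma and 0.194 in early nephron. In urothelium the ratio of 1.17 (0.383 to 4.24) leaves the direction unresolved. The P3 leukocytes came from 2 clusters: one led by Mrc1 and F13a1, genes of tissue macrophages, read 29.5, and one led by Ighm and Ikzf3, genes of B cells, read 6.45.

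**Figure D3:**
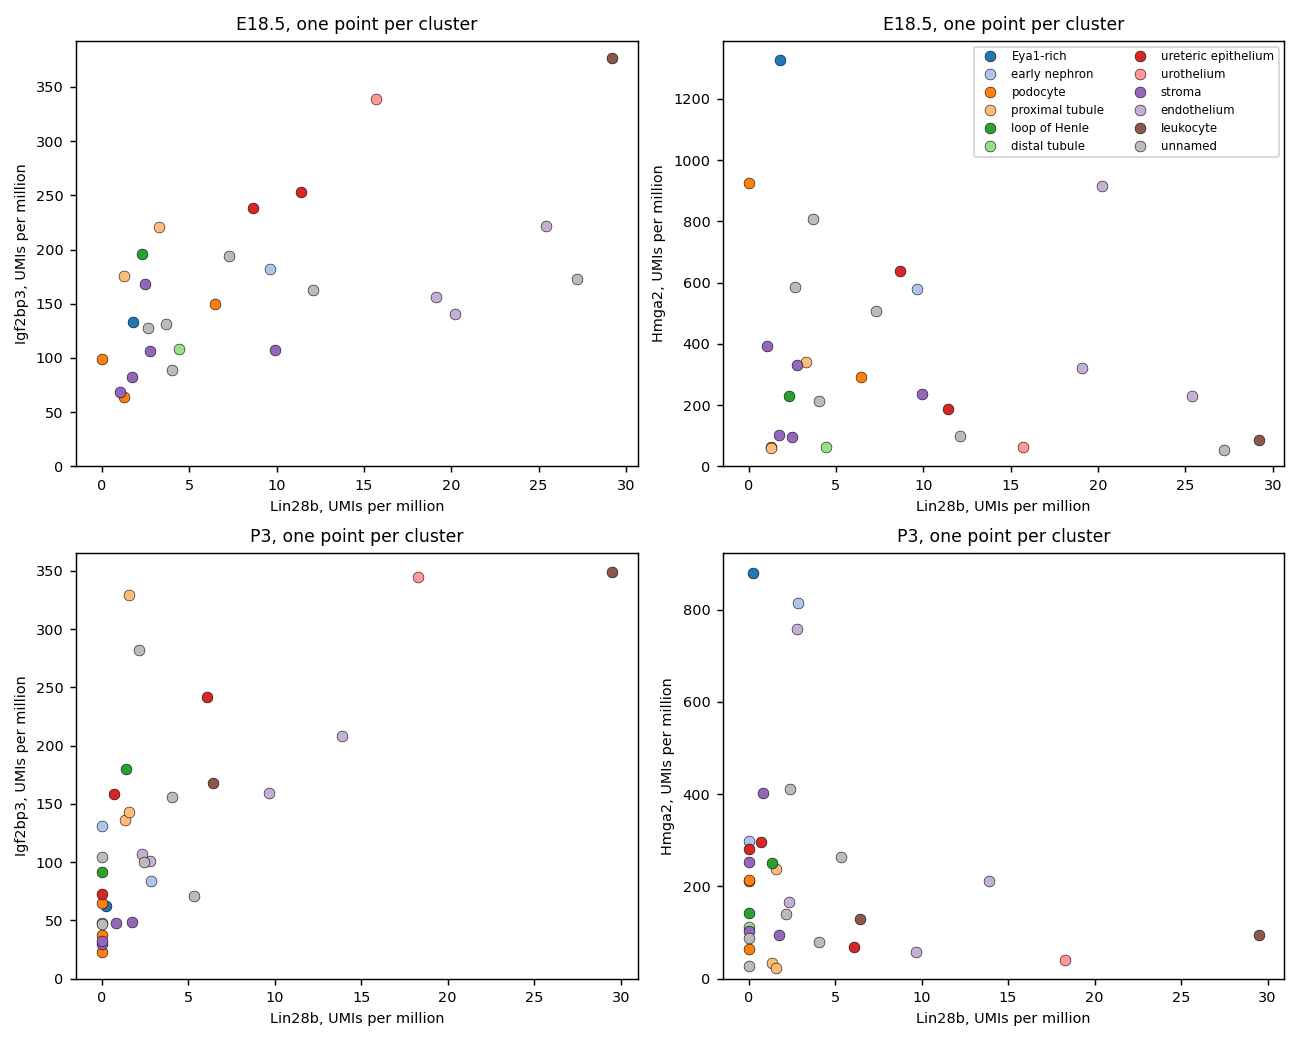
Levels of Lin28b (horizontal, CPM) against Igf2bp3 (left) and Hmga2 (right, both vertical, CPM), with 1 point for each of 27 clusters at E18.5 (top) and 32 at P3 (bottom), coloured by class. Igf2bp3 was high in the Lin28b-rich leukocyte and urothelium clusters, while the Eya1-rich clusters had the most Hmga2 (1326 and 879.8) and little Lin28b (1.8 and 0.233).

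Hmga2 (chr10:120361275-120476469, minus strand), the chromatin gene with 4 seed matches, was highest in the Eya1-rich class at both ages. The level there was 1326 (1301 to 1352) in the E18.5 library and 879.8 (852 to 908) in the P3 library. Early nephron followed at 579 and 635, so the step down was 2.29-fold (2.18 to 2.41) in the E18.5 library and 1.39-fold (1.31 to 1.46) in the P3 library. Urothelium was lowest at both ages, at 62.8 and 39.7, which is 21.1-fold (13.7 to 34.6) and 22.1-fold (15.1 to 33.9) below the Eya1-rich class. Leukocyte (85.1 and 103) and distal tubule (64.1 and 111) were low too. With every nucleus thinned to 1000 UMIs, 66.3% of Eya1-rich nuclei at E18.5 and 49.3% at P3 had an Hmga2 UMI, against 3.57% and 2.82% of urothelial nuclei (median depths 3149 and 4753 for the first class, 3454 and 6261 for the second). Without thinning the Eya1-rich shares were 91.1% and 87.7%.

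Hmga2 also varied within lineages. Of the ureteric clusters at E18.5, one led by Ros1 and Dok6 read 639 and the other 186, a ratio of 3.44 (3.05 to 3.88). At P3 the ureteric clusters read 297, 281 and 68. In the endothelium and stroma the levels were 308 and 303 at E18.5 and 241 and 234 at P3, and these classes did not differ from each other beyond counting error at either age. The endothelial clusters at E18.5 read 230.0 (214 to 247) where 3.83% of nuclei were called doublets, and 320.0 and 914 where 63.7% and 90.4% were. Podocyte clusters at E18.5 read 61.6 where 2.75% of nuclei were called doublets, and 292 and 926 where 84.1% and 69% were. The part of doublets in the podocyte level of 252 and the endothelial level of 308 was not tested.

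The age ratio of Hmga2 was 0.595 (0.585 to 0.606) over all nuclei, 0.663 (0.639 to 0.689) in the Eya1-rich class, 0.527 (0.48 to 0.58) in ureteric epithelium, 0.772 in stroma and 0.784 in endothelium. The value over all nuclei includes the difference in class shares, and the endothelial value includes clusters of mostly called doublets. Early nephron read 1.1 (1.03 to 1.17), and distal tubule went the other way at 1.73 (1.12 to 2.74) from 29 and 84 UMIs. The tubule values rest on which clusters each class holds. A pair of clusters led by Grid1 and Stxbp5l, 1116 nuclei at E18.5 and 213 at P3, was classed with proximal tubule at E18.5 and with early nephron at P3. In that pair Hmga2 read 341 and 299, a ratio of 0.877 (0.775 to 0.989). Without them the ratio in early nephron was 1.41 (1.32 to 1.5), from 579 to 814. In proximal tubule it was 2.61 (2.2 to 3.12) without them, from 59.1 to 154, and 0.139 (0.122 to 0.158) without clusters of mostly called doublets. The single P3 proximal tubule cluster with 88.7% called doublets read 237, and the other 2 read 34.6 and 23.2. The ratio of 2.61 keeps that P3 cluster, and the ratio of 0.139 keeps the Grid1-led cluster at E18.5. Among the proximal tubule clusters that are neither, the levels were 59.1 at E18.5 and 34.6 and 23.2 at P3, lower at P3. No direction is given for Hmga2 in the proximal tubule class as a whole for this reason.

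Igf2bp1 (chr11:95957163-96005940, minus strand), an mRNA-binding protein gene known mainly from the embryo, was spread across nephron classes. At E18.5 the Eya1-rich class read 164, proximal tubule 163 and early nephron 162, with a ratio of 1 (0.925 to 1.09) between the first 2. At P3 early nephron led at 129.7, 1.36-fold (1.22 to 1.51) above proximal tubule at 95.6, and the Eya1-rich class read 93.6. Stroma went from 78.7 to 31.5, endothelium from 95.7 to 34.9 and leukocyte from 58.5 to 24.9. The age ratio was 0.589 (0.569 to 0.609) over all nuclei, 0.401 (0.36 to 0.446) in stroma, 0.365 (0.302 to 0.439) in endothelium and 0.571 (0.509 to 0.639) in the Eya1-rich class.

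Igf2bp2 (chr16:22059009-22163299, minus strand), the family member known to persist in adult tissues, was present in all epithelial classes and in stroma, and was lowest in leukocytes. The Eya1-rich class (300.4 at E18.5, 244 at P3) and ureteric epithelium (281 and 217) led. Their ratio was 1.07 (0.996 to 1.15) in the E18.5 library and 1.13 (1.02 to 1.24) in the P3 library. Leukocytes read 31.9 (16.5 to 55.7) and 32 (19 to 50.6), 9.42-fold (5.38 to 18.3) and 7.63-fold (4.8 to 12.9) below the Eya1-rich class. After thinning, 3.18% and 1.53% of leukocytes had an Igf2bp2 UMI, against 25.5% and 23.5% of Eya1-rich nuclei. The age ratio was 0.697 (0.68 to 0.714) over all nuclei and 0.814 (0.756 to 0.875) in the Eya1-rich class, where it was nearer to 1 than those of Hmga2, Igf2bp1 and Igf2bp3.

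Igf2bp3 (chr6:49085223-49214957, minus strand), a family member known from fetal tissue and tumours, had another order, with leukocyte and urothelium on top. Leukocytes read 377 (318 to 445) in the E18.5 library and 299 (256 to 348) in the P3 library, and urothelium 339 and 345 (302 to 394 at P3). These 2 classes did not differ beyond counting error at either age. Ureteric epithelium read 245 and 172, proximal tubule 205 and 151, endothelium 196 and 176, the Eya1-rich class 133 and 62.4, and stroma 103 and 46.5. After thinning, an Igf2bp3 UMI was found in 31.2% and 21.9% of leukocytes and in 9.44% and 4.57% of stromal nuclei. Leukocytes were thus in the top pair of classes for Igf2bp3 and last for Igf2bp2 at both ages. The P3 cluster led by Mrc1 read 349 and the one led by Ighm 168.

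The age ratio of Igf2bp3 was uneven across classes. It was 0.47 (0.41 to 0.539) in the Eya1-rich class, 0.453 (0.414 to 0.495) in stroma and 0.358 in podocyte, beside 0.897 (0.816 to 0.986) in endothelium and 1.02 (0.807 to 1.29) in urothelium. Podocytes read 121 at E18.5 and 43.3 at P3. Their E18.5 clusters read 64.2 where 2.75% of nuclei were called doublets, and 149.9 and 99 where 84.1% and 69% were. The podocyte ratio includes clusters of mostly called doublets at both ages. A P3 podocyte cluster with 23% called doublets read 64.6, and all P3 podocytes 43.3, beside the 64.2 of the E18.5 cluster with few called doublets. The size of the podocyte ratio thus rests on which clusters the class holds, and no test of their part was run. At P3 endothelium was 3.78-fold (3.41 to 4.2) above stroma, where at E18.5 it had been 1.91-fold (1.77 to 2.06). The ratio over all nuclei was 0.729 (0.708 to 0.75). Whether 2 classes differ in their age ratios could not be tested with 1 library at each age.

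**Figure D4:**
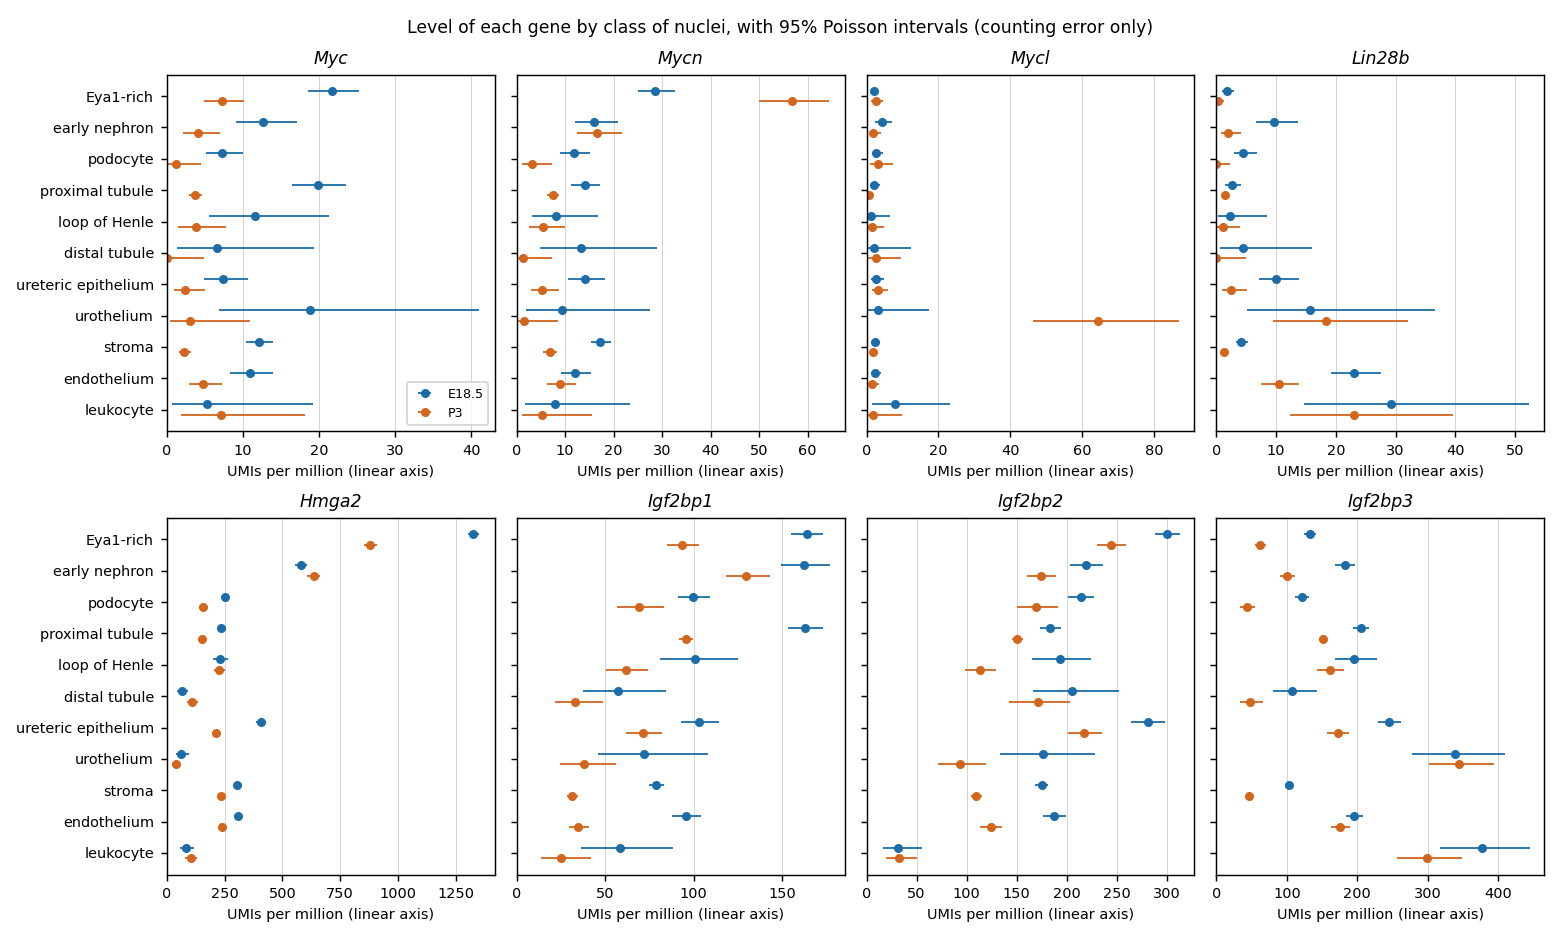
Level of each of the 8 genes in CPM (linear axis) in the 11 classes at E18.5 and P3, as points with exact 95% Poisson intervals. Hmga2 was highest in Eya1-rich nuclei at both ages, Lin28b in leukocyte nuclei, and at P3 Mycl in urothelium (64.2) and Mycn in Eya1-rich nuclei (56.8).

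Members past a 2-fold age ratio were counted among those with at least 10 CPM at 1 age or more. The same limit set the genes behind each share of all genes. A gene that passes at 1 age alone is high there by this rule, so its call is partly fixed in advance. Myc passed at E18.5 alone over all nuclei and in the Eya1-rich, stroma and endothelium classes. So did Mycn in stroma, podocyte, distal tubule and ureteric epithelium, while Mycl in urothelium passed at P3 alone. Over all nuclei 1 of 6 tested was lower at P3 (Myc) and none was higher, where 8.64% of all genes tested were 2-fold lower and 3.29% 2-fold higher. In the Eya1-rich class 2 of 6 were lower (Myc and Igf2bp3), against 9.81% of genes. None was higher there, against 4.91%, with Mycn at 1.98 just short of the rule. In stroma 4 of 6 were lower, Myc, Mycn, Igf2bp1 and Igf2bp3, against 12.1% of genes, and none was higher (2.01%). In endothelium 3 of 7 were lower, Myc, Lin28b and Igf2bp1, against 11.1%, and none was higher (1.9%). Podocyte had 2 of 5 lower, Mycn and Igf2bp3 (12.6%), and none higher (1.93%), and ureteric epithelium 2 of 6 lower (11.9%) and none higher (3.32%). The podocyte ratio of Igf2bp3 includes clusters of mostly called doublets. The E18.5 podocyte cluster with 2.75% called doublets read 64.2 Igf2bp3 CPM, beside 43.3 in all P3 podocytes. Distal tubule had 2 of 5 lower (19.3%) and none higher (7.22%), and loop of Henle 1 of 5 lower (12.6%) and none higher (5.22%). Early nephron had 1 of 6 lower (11.2%) and none higher (4.87%), and proximal tubule 1 of 6 lower (11.3%) and none higher (7.21%). Leukocyte had 1 of 5 lower (16.4%) and none higher (12%). Urothelium had 1 of 7 lower (16.6%) and 1 higher, Mycl, where 9.24% of genes were 2-fold higher. With so few genes, and with this limit on level, these shares only describe the set, and classes are not ranked by them.

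**Figure D5:**
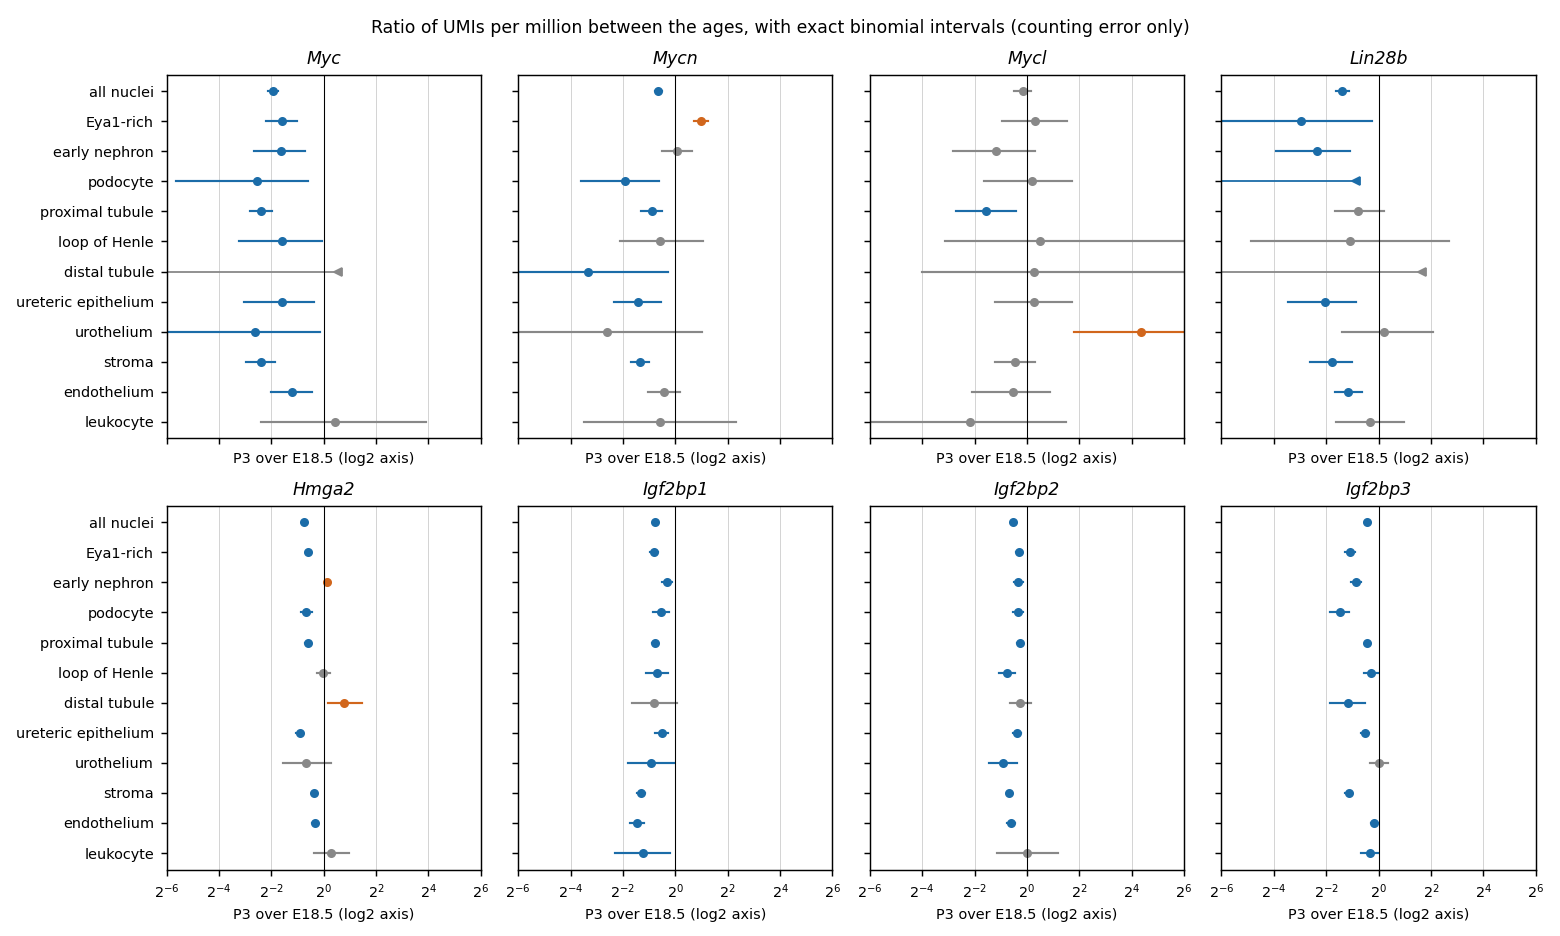
Age ratio (P3 over E18.5, log axis) of the 8 genes over all nuclei and in each class, with conditional exact 95% intervals for counting error, cut off at the axis ends, in blue below 1, orange above 1 and grey where they include 1, and with arrows at the upper limit where P3 had 0 UMIs. Most intervals lie below the line at 1, while those of Mycn in Eya1-rich nuclei (1.98), Mycl in urothelium (20.5) and Hmga2 in early nephron (1.1) and distal tubule (1.73) lie above it.

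Across the clusters of each library, the levels of the 8 genes on the log2 scale were compared as a description. Clusters differ in depth, with medians from 1259 to 6091.5 UMIs at E18.5 and from 970 to 11615.5 at P3. At each age 6 clusters hold over 50% called doublets. The parts of depth and doublets in these values were not tested. Lin28b went with Igf2bp3 (r = 0.62 over 27 clusters at E18.5 and 0.70 over 32 at P3). It did not go with Hmga2 (−0.18 and −0.16) and ran against Igf2bp2 (−0.41 and −0.44). Mycn went with Hmga2 (0.44 and 0.62), and Hmga2 with Igf2bp1 at E18.5 (0.69) more than at P3 (0.26). Of the let-7 target members, then, Igf2bp3 was the one whose level over clusters went most closely with that of Lin28b. Low counts of Lin28b, 173 UMIs at P3, limit these values.

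Pairs of genes were counted within single nuclei thinned to 1000 UMIs, in the Eya1-rich, ureteric epithelium and stroma classes only. Of the pairs expected in at least 10 nuclei together, none had a ratio of observed to expected whose interval left out 1. Of 2282 thinned Eya1-rich nuclei at E18.5, 40 had both a Mycn and an Hmga2 UMI where 47.8 would follow from independence, a ratio of 0.837 (0.598 to 1.14). At P3 the counts were 24 and 23.6, a ratio of 1.02. The lowest ratio among pairs with at least 10 expected was that of Hmga2 and Igf2bp2 in P3 ureteric nuclei, 13 against 22.2 (0.585, 0.312 to 1). Of rarer pairs, Myc and Igf2bp3 met in 0 nuclei of E18.5 stroma against 5.76 expected (upper limit 0.641), and Myc and Mycl met in 1 P3 ureteric nucleus against 0.00571 (ratio 175, 4.43 to 975). Nuclei with at least 2 UMIs of cycling genes after thinning made up 19.5% of the Eya1-rich class at E18.5 and 20.1% at P3. Mycn was not detectably different in them (E18.5: 1.13, 0.814 to 1.54, and P3: 1.13, 0.832 to 1.51). Hmga2 was higher in cycling nuclei of proximal tubule (1.98, 1.76 to 2.23 at E18.5, then 1.94, 1.77 to 2.13) and of ureteric epithelium (1.58, 1.41 to 1.78, then 1.94, 1.56 to 2.4), and in stroma it read 1.06 (0.993 to 1.14) and 0.638 (0.561 to 0.722). Lin28b in endothelium read 1.63 (1.11 to 2.37) at E18.5 but 0.67 (0.252 to 1.52) at P3. Mycn in stroma read 1.5 (1.14 to 1.95) and then 1.12 (0.573 to 2.01), while Igf2bp2 was lower in cycling stroma at both ages (0.745, 0.672 to 0.824 and 0.635, 0.526 to 0.763). Cycling nuclei were deeper in most classes (in P3 proximal tubule a median of 10664 UMIs against 7499.5). The classes also pool clusters of unlike level, such as Hmga2 at E18.5 in proximal tubule (341 and 59.1) and ureteric epithelium (639 and 186). The parts of depth, cluster mix and called doublets in these ratios were not tested.

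The genes outside the lists whose levels over clusters were most like those of a member are named with Pearson's r on the log2 scale, over 27 clusters at E18.5 and 32 at P3. At P3 the genes closest to Mycn were Gdnf (0.791), the growth factor that nephron progenitors send to the ureteric bud, Htr2a (0.780) and Uck2 (0.778). At E18.5 they were Zc3hc1 (0.875), 2410006H16Rik (0.872) and Pabpc4 (0.868). Hmga2 was closest to Spats2 (0.898), Tia1 (0.881) and Cpsf6 (0.880) at E18.5 and to Plppr3 (0.801) and again Tia1 (0.796) at P3. Lin28b at E18.5 was closest to Ncoa3 (0.829), Znfx1 (0.802) and Apobec3 (0.797). Igf2bp3 was closest to Ssh2 (0.796) at E18.5 and to Ctsh (0.858), a lysosomal protease, Elf1 (0.802) and Klf10 (0.783) at P3. Myc was closest to Acat2 (0.759) at E18.5 and to the immediate early gene Ier2 (0.741) at P3.

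Genes of the same pathways were read from lists written with earlier results of these data known. Their values over all nuclei include the difference in class shares between the ages. In the MYC network of partners and antagonists, 8 genes were tested over all nuclei, 1 of them 2-fold lower at P3 and 1 higher, with a median log2 age ratio of −0.01 beside −0.10 for all genes. Bmyc, a short relative of Myc, was lowest (0.318, 0.289 to 0.349), and Mlxipl, the glucose-sensing factor of liver and kidney, was highest (3.44, 3.22 to 3.69). Of 13 MYC target genes 3 were 2-fold lower at P3, against 8.64% of all genes, with a median of −0.58 beside −0.10. The shortest bin of genes had a median of −0.65, and the part of gene length in this list was not tested. The nucleolar protein gene Npm1 was lowest (0.313) and Nop58, which also serves the nucleolus, highest (0.822). In the Eya1-rich class 1 of the 13 was 2-fold lower (9.81% of all genes), the lactate dehydrogenase gene Ldha (0.294), with a median of −0.29 beside −0.07 for all genes, and Cad, which starts pyrimidine synthesis, read 1.64.

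On the let-7 side of the pathway, of 8 let-7 processing genes none passed 2-fold, with a median of −0.04, from Tut4 (0.863), which tags let-7 precursors with uridine, to Dis3l2 (1.33), the nuclease that degrades them. Lin28a, the other LIN28 gene, was counted 4 times in the E18.5 library and 8 times in the P3 library and is given no ratio. Of 11 other let-7 target genes none passed 2-fold and the median was −0.30, from Trim71 (0.544), an embryonic RNA-binding ubiquitin ligase, to Igdcc3 (1.65). Within classes the median of these target genes ran from −0.24 in proximal tubule to 0.68 in leukocyte. In the Eya1-rich class it was −0.05 beside −0.07 for all genes. There Nr6a1, an orphan nuclear receptor of the embryo, was 2-fold lower (0.48) and Igdcc3 2-fold higher (2.26), 1 of 11 each way. Of all genes in that class 9.81% were 2-fold lower and 4.91% 2-fold higher. The nuclear let-7 host transcripts Mir99ahg and Mir100hg had ratios of 1.25 and 0.999. Igf2, the growth factor whose mRNA gave the IGF2BP proteins their name, was at 0.193 and H19, its imprinted neighbour, at 0.236 over all nuclei, and at 0.303 and 0.738 in the Eya1-rich class. Among 8 cycling genes over all nuclei 1 was 2-fold lower at P3, Ccnb1 (0.48), against 8.64% of all genes. Of the 8 genes, 7 were lower at P3 by any amount, and Mki67 read 1.01. Their median log2 age ratio was −0.62 beside −0.10 for all genes.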

How the data were processed

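The authors deposited unnormalised UMI counts per gene and nucleus, 1 matrix per age, made with Cell Ranger on mm10. The labels give release 5.0.1 for both, and the file headers 7.0.0 for E18.5 and 5.0.1 for P3. Members and lists were chosen with earlier results of these data known. Each of the 2 labelled ages was 1 group of 1 library, and no columns of other samples (0) were found. Of 32285 gene identifiers, 32158 (99.6%) were in GENCODE M21.

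Nuclei beyond 3 median absolute deviations in log UMIs or genes (112 at E18.5, 0 at P3), or in mitochondrial share with a difference of at least 0.5 percentage points (220 and 451), were left out. Doublets called by scrublet in scanpy 1.11.5 (expected rate 0.1; 17% and 17.8%) were kept. Clusters came from scran 1.30.0 in R 4.3.3 with bluster 1.12.0: 2000 variable genes without the members and related lists, 50 principal components, a shared neighbour graph of 10 neighbours and Walktrap. A cluster took a class with at least 3 raised markers (at least 10 UMIs and 2-fold over other nuclei with 10 CPM added). It stayed unnamed where a second class reached a share over 0.8 of the best class's share of raised markers, where leading genes held more markers of another class, or for raised hemoglobin genes with Alas2 not raised. A further rule on low UMIs left no cluster unnamed. Interstitium and mural clusters were merged to stroma, and the Eya1-rich class (a cluster with Eya1 among its 10 leading genes and under 50% called doublets) was defined, after the clusters were seen.

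UMIs were summed per class and scaled to 1000000 UMIs of that class (CPM). Levels carry exact Poisson, ratios conditional exact binomial and shares exact binomial (Clopper-Pearson) intervals at 95%, for counting error only. No test between ages was run, and calls rest on a 2-fold rule. Shares were also read with each nucleus thinned to 1000 UMIs, shallower nuclei left out. Named are the members, the 3 genes most like each over clusters (members with at least 200 UMIs), and from each related list the highest and lowest age ratio and any gene under 30 UMIs; further genes named were chosen after their values were seen. Scripts used Python 3.11.15, numpy 2.4.6, scipy 1.17.1 and pandas 2.3.3, and were tested on simulated data. Alternatives were other scalings, folds, clusterings, thinning, quality limits and removal of doublets or clusters. Mirlet7bhg was not among the genes used here.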

Additional observations from a re-analysis of the deposited data

Results flagged for a closer look

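The age ratio of a few genes lay above 1 in 1 class while it lay below 1, beyond counting error, in others. With 1 library at each age these differences between classes were not tested. Mycn in Eya1-rich nuclei had an age ratio of 1.98 and was below 1 in 5 other classes, of which proximal tubule read 0.819 (0.518 to 1.36) without its Grid1-led cluster and 1.09 in Leiden clusters. Mycl in urothelium had a ratio of 20.5, resting on 1 UMI at E18.5 and 42 at P3, and was below 1 in proximal tubule. Hmga2 had ratios of 1.1 in early nephron and 1.73 in distal tubule, and was below 1 in 6 other classes. Of these 6, proximal tubule read 2.61 without its Grid1-led cluster, a value that keeps a P3 cluster of 88.7% called doublets. Podocyte read 2.31 without clusters of mostly called doublets. No direction is given for either class as a whole. The early nephron value of Hmga2 moved with the clusters that the class holds, and was 1.41 without the Grid1-led cluster and 0.672 in Leiden clusters.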

How the results depend on the processing

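No paired analysis was possible because each age had 1 library. Of 745 age ratios under alternatives, 607 kept to their main value within counting error, 129 moved and 9 reversed. Only a ratio whose main interval left out 1 could be called reversed. Thinning to 1000 UMIs moved 36 of 89 ratios, and scaling relative to genes of like length moved 32 of 96. The reversed ones follow. Hmga2 in early nephron was 0.949 relative to genes of like length, 0.672 in Leiden clusters and 0.996 with 20 neighbours. In Leiden clusters, proximal tubule gave 1.09 for Mycn and 1.57 for Hmga2. Without the Grid1-led clusters, proximal tubule gave 2.61 for Hmga2 and 1.01 for Igf2bp2. Podocyte Hmga2 was 2.31 without clusters of mostly called doublets. Mycn in nuclei of any cluster with at least 5 Eya1 UMIs and no Wnt4, Lhx1 or Jag1 UMI was 0.841. The class a cluster joins, or the nuclei kept, differ in these by construction, apart from the length scaling; further causes were not tested.

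Counts of members past 2-fold moved in 43 of 236 alternatives. Those listed here are over all nuclei and in the Eya1-rich, stroma and endothelium classes only. Over all nuclei 4 members were lower at 1.5-fold. In the Eya1-rich class 1 member was higher under median ratio scaling, the length scaling, 1.5-fold, Leiden clusters and thinning to 1000 UMIs, against 0. There 4 were lower at 1.5-fold, and 1 at 3-fold, under the length scaling and in the any-cluster Eya1 subset. In stroma 1 was lower at 3-fold, and in endothelium 0 at 3-fold and 1 after thinning. The ratio of the highest class to the next moved beyond counting error in 11 of 64 alternatives and reversed in 0. Only a ratio whose main interval lay above 1 could be called reversed, so this count does not show that the order of classes holds. Leiden clusters gave no distal tubule class at E18.5. Depth limits Lin28b and Mycl most, at 173 and 155 UMIs at P3.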
